A study of Homo sapiens with 6 samples.

Results

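Axon guidance is the steering of growing nerve fibres by secreted or membrane-bound cues that attract or repel the growth cone. Semaphorins signal through plexins, with neuropilins as co-receptors for most secreted semaphorins. Ephrins signal through Eph receptors, SLIT proteins through ROBO receptors, and netrins through DCC and the UNC5 receptors. Several of these receptors also act in cell survival and tumour growth, and UNC5 proteins are known as dependence receptors, which promote cell death when their netrin ligand is missing.

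The genes described here are the protein-coding rows of the deposited table whose symbol belongs to one of these families, 64 of 28752 genes. They comprise 35 ligands, 27 receptors and 2 genes, UNC50 and UNC5CL, that share the letters of the symbol but are not netrin receptors. UNC50 encodes a Golgi membrane protein and UNC5CL a death-domain protein. Members of these families with no row in the table used here, DCC among them, are not analysed here. Membership followed the symbol alone, but the families were chosen with earlier results of these data known.

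RNA was sequenced from SH-SY5Y cells, an established human line of neuroblastoma, a childhood tumour of sympathetic nerve precursors. The cells had been transfected with OE-circSHPRH or OE-NC and were harvested 72 h later. OE-circSHPRH refers to circ-SHPRH, a circle made from SHPRH transcripts, and OE-NC is taken as its negative control, since the labels spell out neither OE nor NC and give no details of the constructs. There were 3 libraries per group, all of 1 cell line. Separate cultures are not mentioned in the labels, so p-values measure only the spread between these libraries, which may be technical. The series title asks about a peptide encoded by circ-SHPRH, the CDK inhibitor p21 and CDKs, and says nothing of axon guidance.

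Library totals ran from 15645261 to 17591718 counts, so that 1 count was worth 0.0568 to 0.0639 CPM, the count scaled to library size. SHPRH, counted over the whole host gene, was at 82.0, 72.3 and 64.3 CPM in OE-circSHPRH and at 24.9, 23.3 and 26.95 CPM in OE-NC. All 12 adrenergic markers of this cell line that were looked up had at least 1 FPKM (read fragments scaled to gene length and library size, the only unit used here to compare genes), among them PHOX2A, HAND2 and DBH. Of 18 markers of fibroblasts, epithelium, blood, endothelium and glia, 12 were in the table and 5 reached 1 FPKM. Those 12 summed to 61.8 to 73.3 FPKM in OE-circSHPRH and to 58.5 to 60.05 FPKM in OE-NC, most of it LUM, a matrix proteoglycan, at 46.5 FPKM. The sum of the adrenergic markers was likewise higher without overlap, at 1692 to 1727 FPKM in OE-circSHPRH and 1642 to 1662 FPKM in OE-NC. COL1A2, PECAM1, SOX10 and GFAP were below 0.1 FPKM; the part of these markers in the results was not tested. The share of mitochondrially encoded counts split the libraries into a low class (10.2% to 10.3%, OE-circSHPRH replicate 3 and OE-NC replicates 1 and 2) and a high class (11.4% to 12.1%, OE-circSHPRH replicates 1 and 2 and OE-NC replicate 3).

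SH-SY5Y cells expressed at least 1 member of every ligand family and of every receptor family except the neuropilins at 1 FPKM or more. Averaged over all 6 libraries, 15 of the 64 genes stood at 10 FPKM or more, 23 between 1 and 10 FPKM, and 26 below 1 FPKM. All members together took 0.386% to 0.397% of the counts in OE-circSHPRH and 0.385% to 0.391% in OE-NC. None of these 64 genes was at 0 in all libraries, which does not cover family members without a row.

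UNC5B, a netrin receptor, had the highest level of the 64 genes, and the netrins were low. UNC5B (chromosome 10, 71212570 to 71302864, plus strand, GRCh38), known also as a target of p53, was at 102 ± 2.55 FPKM in OE-circSHPRH and 105 ± 1.14 FPKM in OE-NC (SD, n = 3 each), above 98.5% of the protein-coding genes in the table. UNC5C (chromosome 4, 95162504 to 95549206) was at 55.1 ± 2.60 FPKM in OE-circSHPRH and 55.3 ± 1.66 FPKM in OE-NC. These receptors alone held 32.7% to 33.4% of all counts of the 64 genes in OE-circSHPRH and 33.8% to 34.6% in OE-NC. UNC5A, the third family member in the table, had 1, 0 and 5 counts in OE-circSHPRH and 0 in every OE-NC library, where a count of 0 allows up to 3 counts, or 0.171 to 0.190 CPM (counting error only). Of the netrins, NTN3 led with 4.45 ± 0.603 FPKM in OE-circSHPRH and 5.42 ± 0.369 FPKM in OE-NC. NTN4 was at 0.324 FPKM in OE-circSHPRH and 0.332 FPKM in OE-NC. NTN1, the netrin best known for attracting commissural axons, was at 0.0308 FPKM in OE-circSHPRH and 0.0455 FPKM in OE-NC. UNC5B and UNC5C thus stood far above the netrins in both groups.

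Semaphorins and plexins were the broadest repertoire. Of 20 semaphorin genes, 3 stood at 10 FPKM or more and 9 below 1 FPKM. SEMA3C, a secreted semaphorin, led at 29.02 ± 0.829 FPKM in OE-circSHPRH and 27.1 ± 0.479 FPKM in OE-NC. The transmembrane SEMA4C followed at 17.0 FPKM in OE-circSHPRH and 18.2 FPKM in OE-NC, and the secreted SEMA3F at 11.1 FPKM in OE-circSHPRH and 10.1 FPKM in OE-NC. Of 9 plexins 8 were above 1 FPKM, with PLXNB2 far ahead at 58.5 ± 2.98 FPKM in OE-circSHPRH and 52.2 ± 0.836 FPKM in OE-NC. PLXNC1, the receptor of SEMA7A, was the exception at 0.646 FPKM in OE-circSHPRH and 0.714 FPKM in OE-NC, and SEMA7A itself stood at 0.246 FPKM in OE-circSHPRH and 0.239 FPKM in OE-NC. The neuropilins, which secreted semaphorins such as SEMA3B, SEMA3C and SEMA3F bind, were almost unread: NRP1 had 21, 33 and 11 counts in OE-circSHPRH and 8, 8 and 24 in OE-NC. NRP2 had 3, 13 and 12 counts in OE-circSHPRH and 17, 21 and 15 in OE-NC. Per length, NRP1 reached 0.115 ± 0.0636 FPKM in OE-circSHPRH and 0.0668 ± 0.0442 FPKM in OE-NC.

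Among the Eph receptors with a row in the table, a single gene of each class carried nearly all of the level. EPHA2 was at 26.7 ± 0.771 FPKM in OE-circSHPRH and 25.0 ± 0.859 FPKM in OE-NC, and the other 4 EPHA genes in the table were below 0.2 FPKM. EPHB4, the receptor of ephrin-B2, was at 19.7 ± 0.471 FPKM in OE-circSHPRH and 19.9 ± 0.583 FPKM in OE-NC, with the other 4 EPHB genes below 0.6 FPKM. The ephrins, in contrast, were all present, from EFNA3 at 3.90 FPKM to EFNA4 at 22.2 FPKM over all libraries. EFNB2, which encodes ephrin-B2, was at 12.8 FPKM in OE-circSHPRH and 13.2 FPKM in OE-NC. Of the SLIT ligands, SLIT3 was at 11.1 FPKM in OE-circSHPRH and 10.6 FPKM in OE-NC, and SLIT2 at 4.15 FPKM in OE-circSHPRH and 4.38 FPKM in OE-NC. Their receptor ROBO1 was at 7.87 FPKM in OE-circSHPRH and 7.31 FPKM in OE-NC. ROBO3, a receptor of the same family, was at 4.57 FPKM in OE-circSHPRH and 4.55 FPKM in OE-NC. Ligands and receptors of this system were thus both read. SLIT1 was almost unread, with a mean of 0.0118 FPKM over all libraries, and ROBO2 was read at a lower level, 0.655 FPKM.

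**Figure D1:**
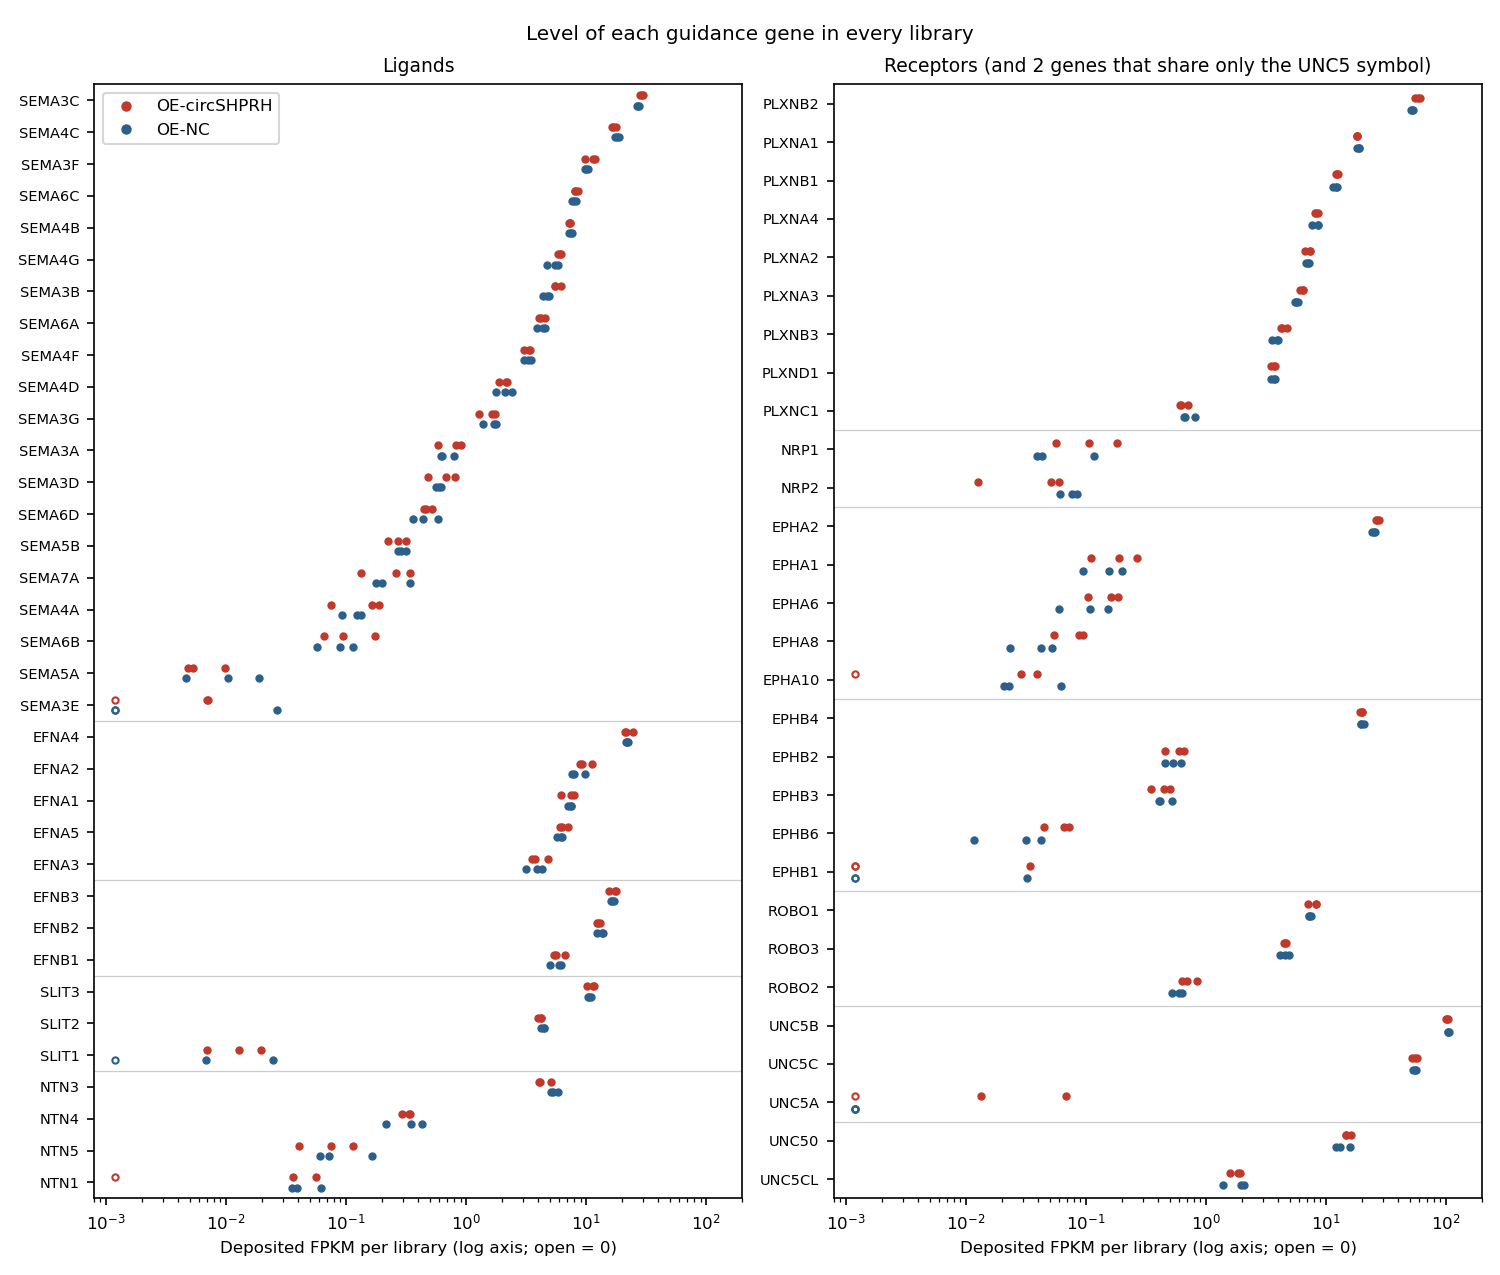
Deposited FPKM (log axis) of the 64 genes in every library, ligands left and receptors right, red for OE-circSHPRH and blue for OE-NC, open circles for a value of 0. UNC5B, at 102 FPKM in OE-circSHPRH and 105 FPKM in OE-NC, lies farthest right, both neuropilins lie near 0.1 FPKM, and the groups lie close together in nearly every row.

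To show how far family members with opposite levels resemble each other upstream, the 250 bases before the RefSeq start (build GRCh38.p14) are printed for the highest and the lowest semaphorin and SLIT gene, with every CG dinucleotide in capitals. The windows are SEMA3C chr7:80922390-80922639, SEMA3E chr7:83649140-83649389, SLIT3 chr5:169301140-169301389 and SLIT1 chr10:97185960-97186209, all from the minus strand, and each is the RefSeq start nearest the deposited start of its gene.
SEMA3C: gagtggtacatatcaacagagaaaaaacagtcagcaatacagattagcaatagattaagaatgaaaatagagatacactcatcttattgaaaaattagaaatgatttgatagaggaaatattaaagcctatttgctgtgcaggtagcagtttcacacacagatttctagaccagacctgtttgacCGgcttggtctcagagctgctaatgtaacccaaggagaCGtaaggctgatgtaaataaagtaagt
SEMA3E: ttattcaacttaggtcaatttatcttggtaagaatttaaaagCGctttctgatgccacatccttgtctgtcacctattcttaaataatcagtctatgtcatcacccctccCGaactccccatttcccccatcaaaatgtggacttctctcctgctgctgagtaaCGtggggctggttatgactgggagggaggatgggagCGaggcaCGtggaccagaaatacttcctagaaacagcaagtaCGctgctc
SLIT3: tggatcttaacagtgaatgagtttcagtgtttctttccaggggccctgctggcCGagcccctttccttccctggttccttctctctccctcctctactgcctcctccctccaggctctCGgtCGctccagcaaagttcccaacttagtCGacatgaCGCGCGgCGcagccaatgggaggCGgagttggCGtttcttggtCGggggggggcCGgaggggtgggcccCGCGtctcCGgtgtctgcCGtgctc
SLIT1: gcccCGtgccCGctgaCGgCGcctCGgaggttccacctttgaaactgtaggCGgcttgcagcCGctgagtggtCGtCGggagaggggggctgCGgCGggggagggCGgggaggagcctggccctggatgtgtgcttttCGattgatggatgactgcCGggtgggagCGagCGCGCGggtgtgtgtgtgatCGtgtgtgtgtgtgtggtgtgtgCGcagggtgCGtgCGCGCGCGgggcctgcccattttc
SEMA3C (28.0 FPKM over all libraries) had 2 CG dinucleotides in this window and SEMA3E (0.00679 FPKM) had 6. SLIT3 (10.9 FPKM) had 16 and SLIT1 (0.0118 FPKM) had 25, so in these windows the gene with the higher level held fewer in both pairs. At the other RefSeq start of each gene the order of the semaphorins is turned round, with 39 CG dinucleotides for SEMA3C and 1 for SEMA3E. Gene counts do not show which start these cells used. RefSeq promoters were found for 55 of the 64 genes, at 83 starts, with a median of 18 CG dinucleotides against 11 over 35116 promoters of the same length. The median was 19 over the 48 windows of members at 1 FPKM or more and 17 over the 35 windows of members below it. The 2 pairs printed thus do not stand for all members. The GC box GGGCGG, on either strand, was in 58 of the 83 windows (69.9%) and in 42.6% of all promoters. It was in 75% of the windows of members at 1 FPKM or more and in 62.9% of those below. TATAAA, on either strand, was in 2 (2.41%) and in 10.7% of all promoters. The 10-base half-site of p53 was in 6 (7.23%) and in 5.57% of all promoters; these are counts of letters, not of bound sites.

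Between the groups, no member passed the test over all genes. With edgeR's quasi-likelihood test and Benjamini-Hochberg adjustment over 16458 genes, 0 of the 53 members that passed the filter on low counts had an adjusted p under 0.05, against 0.188% of all genes tested. These were 31 genes, 21 higher (0.128%) and 10 lower (0.0608%) in OE-circSHPRH, a number that ran from 5 without OE-circSHPRH replicate 2 to 311 without OE-circSHPRH replicate 3. DESeq2 called 1 member, PLXNB2, and limma-voom none. In bulk libraries, fewer cells of a type and less RNA per cell cannot be told apart. The 11 members left untested, EPHA8, EPHA10, EPHB1, EPHB6, NTN1, NTN5, SEMA3E, SEMA5A, SEMA6B, SLIT1 and UNC5A, had at most 12 counts in any library. At an unadjusted p under 0.05 there were 8 members with edgeR (15.1% of 53, against 10.3% of all genes), 6 with DESeq2 and 9 with limma-voom. With edgeR 7 of them were higher in OE-circSHPRH (13.2%, against 5.33% of all genes) and 1 was lower (1.89%, against 5.02%). The groups did not overlap for 8 members (15.1%, against 15.6% of all genes), 7 of them higher (7.99% of all genes) and 1, NRP2, lower in OE-circSHPRH (7.57% of all genes). The median log2 fold change was 0.04 over the 53 members and 0.0018 over all genes tested. Of the 53, 33 (62.3%) were above 0, against 50.8% of all genes.

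For most members the intervals limit how large a difference between these groups of libraries can be. The share of all genes tested with intervals this narrow was not counted. The 95% interval of the log2 fold change lay within a 1.25-fold change in either direction for 29 of 53 members, within a 1.5-fold change for 44 and within a 2-fold change for 48. The 5 members whose interval reached beyond 2-fold were EPHA1, EPHA6, NRP1, NRP2 and SEMA4A, all at or below 0.170 FPKM. NRP1 had a log2 fold change of 0.76 with an interval of -0.21 to 1.73, and NRP2 one of -0.86 with an interval of -1.80 to 0.08. The value of NRP1 was 0.28 without OE-circSHPRH replicate 2, 1.46 without OE-NC replicate 3 and 0.34 with the class of library as a further term, and that of NRP2 ran from -1.21 to -0.42 with a library left out. For these genes the libraries do not tell a 2-fold difference from none.

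**Figure D2:**
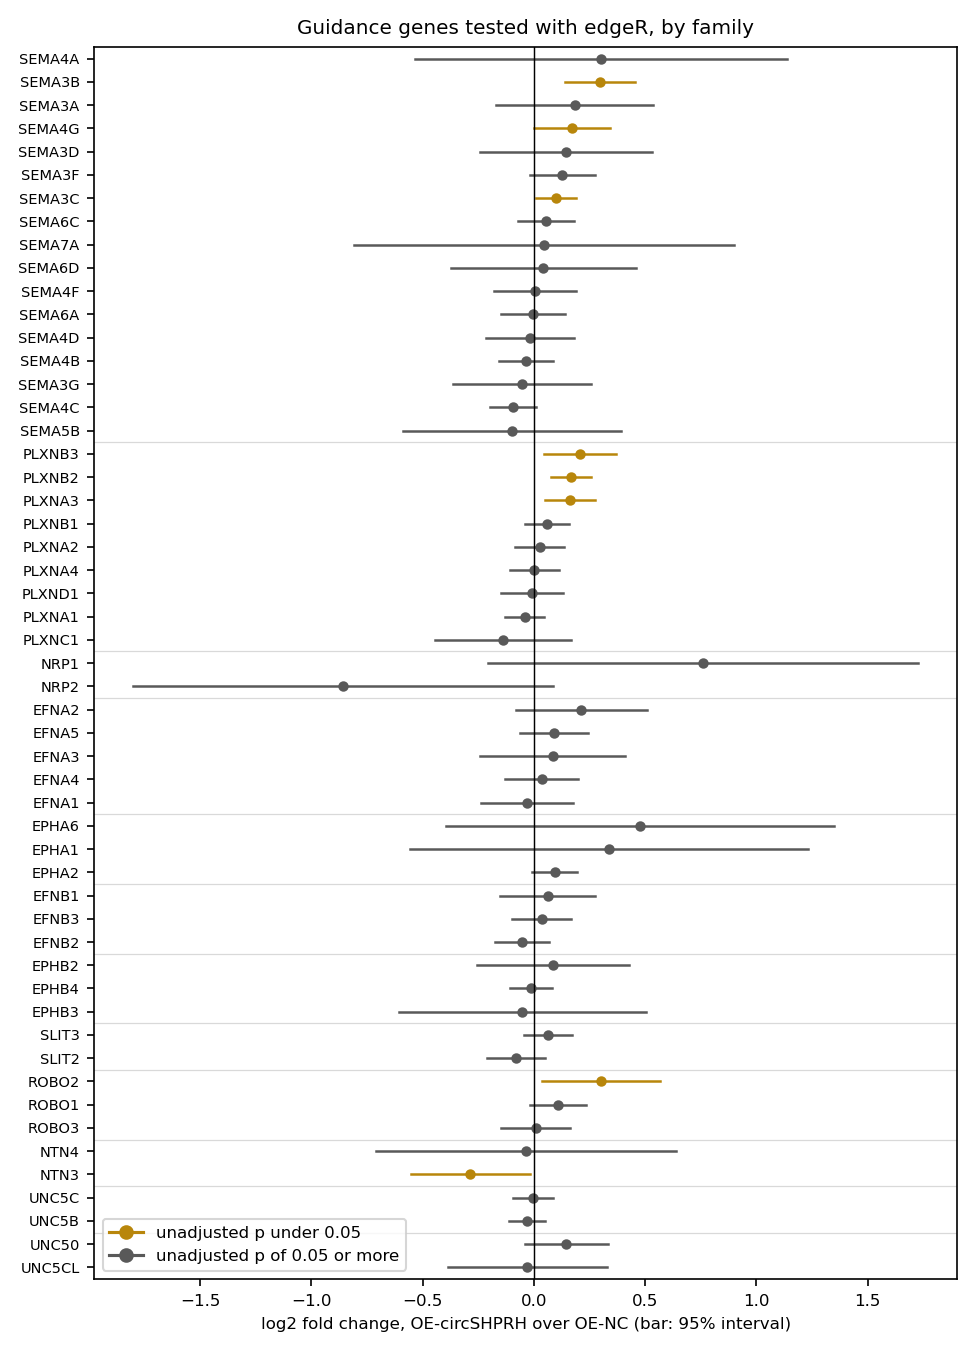
log2 fold change of OE-circSHPRH over OE-NC for the 53 members tested with edgeR (points) with 95% intervals (bars), grouped by family, ochre where the unadjusted p was under 0.05. Only 8 intervals lie clear of 0, those of 3 semaphorins, 3 plexins and ROBO2 to the right and that of NTN3 to the left, and no member had an adjusted p under 0.05.

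Among the ligands, the 4 genes with an unadjusted p under 0.05 were SEMA3B, SEMA3C, SEMA4G and NTN3. SEMA3B (chromosome 3, 50267558 to 50277546, plus strand), a secreted semaphorin known as a target of p53, was at 32.0, 35.8 and 32.4 CPM in OE-circSHPRH and at 27.5, 28.7 and 25.4 CPM in OE-NC. Every OE-circSHPRH library lay above every OE-NC library. Its log2 fold change was 0.30 (SE 0.076, edgeR unadjusted p = 0.00095, adjusted p = 0.135), or 1.23-fold. The adjusted p was 0.0372 without OE-circSHPRH replicate 3, 0.0432 with the class of library as a further term and 0.0405 without the filter on low counts. SEMA3C (chromosome 7, 80742538 to 80922359, minus strand) was at 188, 185 and 178 CPM in OE-circSHPRH and at 169, 170 and 175 CPM in OE-NC. The groups were apart here too, by a smaller margin, at 0.10 on the log2 scale (SE 0.043; edgeR, adjusted p = 0.409).

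SEMA4G (chromosome 10, 100969518 to 100985871, plus strand), a transmembrane semaphorin, was at 32.7, 32.5 and 31.0 CPM in OE-circSHPRH and at 24.9, 31.1 and 29.2 CPM in OE-NC. OE-NC replicate 1 was the low library, and the groups overlapped. The log2 fold change was 0.17 (SE 0.081; edgeR, adjusted p = 0.477). SEMA4G shares 22.3% of its exonic bases with MRPL43 on the opposite strand, whose own log2 fold change was -0.08 (SE 0.056), and the use of strand in counting is not given in the sources used here. NTN3 (chromosome 16, 2471499 to 2474145, plus strand) was at 8.11, 10.3 and 8.34 CPM in OE-circSHPRH and at 11.7, 10.3 and 10.6 CPM in OE-NC. OE-circSHPRH replicate 2 overlapped OE-NC replicate 2, and the log2 fold change was -0.29 (SE 0.13; edgeR, adjusted p = 0.438). It was the only member under that unadjusted threshold with a negative value.

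Among the receptors, the genes with an unadjusted p under 0.05 were PLXNB2, PLXNA3, PLXNB3 and ROBO2. PLXNB2 (chromosome 22, 50274979 to 50307627, minus strand), a receptor of class 4 semaphorins such as SEMA4C, was at 448, 432 and 406 CPM in OE-circSHPRH and at 384, 388 and 376 CPM in OE-NC. The groups did not overlap, and OE-circSHPRH replicate 3 was the library nearest to OE-NC. The log2 fold change was 0.16 (SE 0.043, edgeR unadjusted p = 0.0011, adjusted p = 0.139), or 1.12-fold. The edgeR adjusted p was 0.0041 without OE-circSHPRH replicate 3, 0.0432 with the class of library as a further term and 0.0191 without the filter. DESeq2 put it at 0.0438, and the authors' deposited table at 0.0289 with a log2 fold change of 0.16. PLXNB2 was the only member with an adjusted p under 0.05 in the authors' deposited table, where 73 of all genes had one.

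PLXNA3 (chromosome X, 154458281 to 154477779, plus strand), an A-type plexin that signals with neuropilins, was at 76.5, 75.9 and 72.7 CPM in OE-circSHPRH and at 65.3, 68.8 and 67.1 CPM in OE-NC. These groups did not overlap, and the log2 fold change was 0.16 (SE 0.053; edgeR, adjusted p = 0.260). PLXNB3 (chromosome X, 153764196 to 153779346, plus strand), a receptor of SEMA5A, was at 29.8, 33.8 and 30.4 CPM in OE-circSHPRH and at 27.8, 28.4 and 25.2 CPM in OE-NC. Its log2 fold change was 0.21 (SE 0.078; edgeR, adjusted p = 0.340). PLXNB3 shares 20.4% of its exonic bases with SRPK3 on the same strand, whose own log2 fold change was -0.03 (SE 0.13). ROBO2 (chromosome 3, 75906695 to 77649964, plus strand), a SLIT receptor at only 0.723 FPKM in OE-circSHPRH and 0.587 FPKM in OE-NC, was at 14.1, 10.7 and 11.7 CPM in OE-circSHPRH and at 8.86, 10.1 and 10.6 CPM in OE-NC. The lowest OE-circSHPRH library and the highest OE-NC library nearly met, and the log2 fold change was 0.30 (SE 0.13; edgeR, adjusted p = 0.403).

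**Figure D3:**
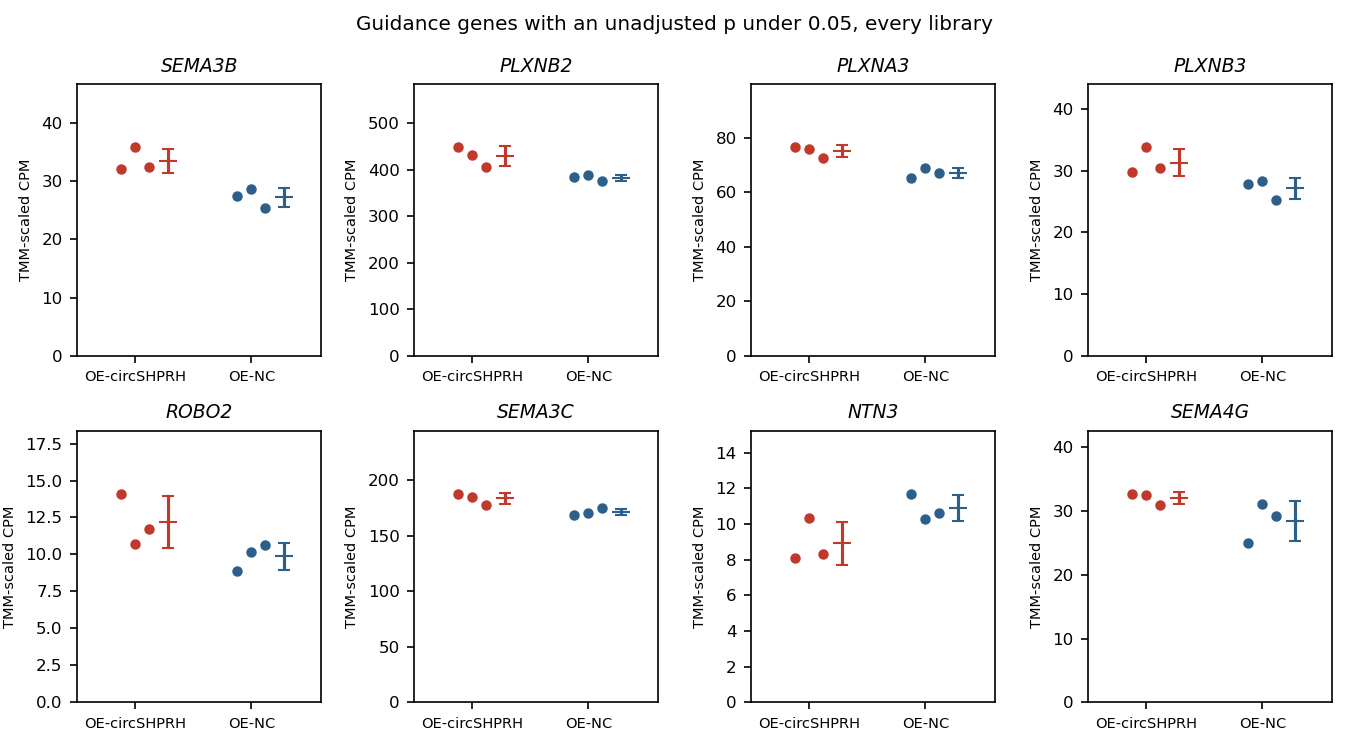
TMM-scaled CPM of the 8 members with an unadjusted p under 0.05 in every library, OE-circSHPRH left and OE-NC right, with the mean and SD of 3 libraries beside the points and axes from 0. SEMA3B, PLXNB2, PLXNA3, PLXNB3, ROBO2 and SEMA3C have no overlap between the groups, while NTN3 and SEMA4G do.

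Of the 9 plexins 6 had a positive log2 fold change, and the family median was 0.03. All 3 B-type plexins were positive, PLXNB1 with 0.06 (SE 0.047). So were the A-type PLXNA3 with 0.16, PLXNA2 with 0.03 (SE 0.052) and PLXNA4 with 0.0020 (SE 0.052). Negative values were those of PLXNA1 with -0.04 (SE 0.041), PLXND1 with -0.0099 (SE 0.066) and PLXNC1 with -0.14 (SE 0.15). The FPKM of the plexins summed to 122.9, 121 and 115 in OE-circSHPRH and to 113, 113 and 111 in OE-NC, without overlap. PLXNB2, the largest part, was at 61.2, 58.9 and 55.3 FPKM in OE-circSHPRH and 52.4, 52.9 and 51.3 FPKM in OE-NC. A sum without PLXNB2 was not tested, so the plexin sum is not read as a result about the other plexins. Sums of the semaphorins (97.5, 99.0 and 98.3 in OE-circSHPRH, 94.7, 95.7 and 93.3 in OE-NC) and EPHA genes were also higher without overlap. SEMA3C alone was at 29.7, 29.2 and 28.1 FPKM in OE-circSHPRH and 26.7, 26.9 and 27.6 FPKM in OE-NC. EPHA2, nearly all of the EPHA sum, was at 27.5, 26.0 and 26.5 FPKM in OE-circSHPRH and 25.4, 25.7 and 24.1 FPKM in OE-NC. The netrin sum was lower in OE-circSHPRH without overlap, and the sums of the other families overlapped. How often sums over other sets of genes part in this way was not counted. These sums are thus not read as family-wide changes. Of 17 semaphorins tested 11 were positive, with a median of 0.05 and a range of -0.10 for SEMA5B, a transmembrane semaphorin, to 0.30 for SEMA4A, a gene with 8 to 22 counts per library. SEMA4C, with -0.10 (SE 0.050, edgeR unadjusted p = 0.0709), and PLXNB2, with 0.16, thus had opposite signs.

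UNC5B, UNC5C, EPHA2, EPHB4, EFNB3 and EFNA4 had log2 fold changes within 0.1 of 0. UNC5B was at 721, 714 and 689 CPM in OE-circSHPRH and at 714, 730 and 725 CPM in OE-NC, overlapping groups with a log2 fold change of -0.03 and an interval of -0.11 to 0.05. EPHA2 was at 116, 109 and 111 CPM in OE-circSHPRH and at 107, 108 and 101 CPM in OE-NC, without overlap, and had 0.09 with an interval of -0.0076 to 0.19. EPHB4 had -0.01 (SE 0.046), EFNB3, an ephrin of the B class, 0.03 (SE 0.063), and EFNA4, an ephrin of the A class, 0.04 (SE 0.078). EFNA2 had the third largest value among members with a mean log2 CPM of at least 1, 0.21 (SE 0.14), with 8.47, 10.8 and 8.88 CPM in OE-circSHPRH and 7.28, 7.63 and 9.31 CPM in OE-NC. Of the genes that share only the symbol, UNC50 was at 15.2 ± 0.834 FPKM in OE-circSHPRH and 13.8 ± 2.03 FPKM in OE-NC (SD, n = 3 each), with 0.15 on the log2 scale (SE 0.088). UNC5CL, at 1.79 FPKM in OE-circSHPRH and 1.82 FPKM in OE-NC, had -0.03 (SE 0.17) and shares 23.8% of its exonic bases with OARD1 on the same strand. UNC5C had -0.0046 (SE 0.043). EFNA3 and EFNA4 share 44.7% and 14.96% of their exonic bases with a read-through gene on the same strand, and EFNB2 shares 26.2% with an antisense gene of 39 counts in all.

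Of the 53 members tested, 19 had opposite signs in the low and the high class of libraries, among them ROBO1, SLIT3, EFNA4 and SEMA4D. The share of such genes among all genes tested was not counted, so the 19 are not read as particular to these members. ROBO1 was at 90.6, 91.0 and 77.9 CPM in OE-circSHPRH and at 82.1, 79.1 and 79.8 CPM in OE-NC, so that OE-circSHPRH replicate 3 lay below all OE-NC libraries. Its log2 fold change was 0.11 (SE 0.060), and the difference of mean log2 CPM was -0.05 within the low class of libraries and 0.19 within the high class. SLIT3, with 0.06 (SE 0.051), had -0.08 in the low and 0.16 in the high class. EFNA4 had 0.18 in the low and -0.05 in the high class, and SEMA4D, a transmembrane semaphorin, -0.26 in the low and 0.28 in the high class. ROBO2 had 0.30 in the low and 0.21 in the high class. Among the others with an unadjusted p under 0.05 the sign was the same in both classes. In the low and the high class these differences were 0.21 and 0.42 for SEMA3B, 0.07 and 0.23 for PLXNB2, 0.12 and 0.18 for PLXNA3, and 0.11 and 0.33 for PLXNB3. They were 0.07 and 0.09 for SEMA3C, 0.15 and 0.16 for SEMA4G, and -0.39 and -0.21 for NTN3. In each class 1 group has only 1 library, and the part of the mitochondrial share in these values was not tested.

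**Figure D4:**
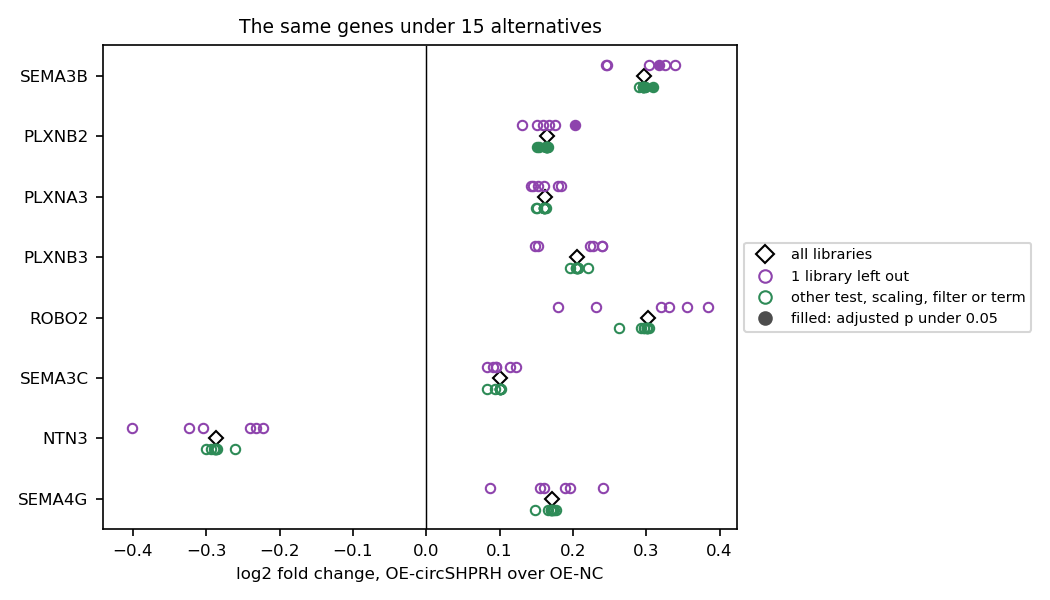
log2 fold change of the same 8 members with all libraries (diamonds), with 1 library left out (purple) and under other tests, scalings, filters or terms (green), filled where the adjusted p was under 0.05. All points of a gene lie on one side of 0, and only PLXNB2 and SEMA3B have filled points, 4 and 3 of 15.

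Genes around these ligands and receptors were described from lists. Of 70 tested genes that act downstream of guidance receptors or shed their ligands, none had an adjusted p under 0.05 with edgeR, and 5 higher and 2 lower in OE-circSHPRH had an unadjusted p under 0.05 (10% in all, against 10.3% of all genes). With the smallest p, MICAL3, of a family of monooxygenases acting on actin, was at 31.7 ± 1.15 CPM in OE-circSHPRH and 38.1 ± 3.68 CPM in OE-NC (log2 fold change -0.27; edgeR, adjusted p = 0.171). Its adjusted p was 0.0221 with the class of library as a further term. ADAM10, a membrane protease that sheds surface proteins, was at 86.0 ± 1.42 CPM in OE-circSHPRH and 78.2 ± 2.84 CPM in OE-NC (0.14; edgeR, adjusted p = 0.340). Over this list the median of the log2 fold changes was 0.03. Of 39 tested genes for other cues, receptors and adhesion molecules, none had an adjusted p under 0.05 either, with 3 higher and 1 lower at an unadjusted p under 0.05 (10.3%) and a median of 0.04. NRCAM, an adhesion molecule of growing axons, was at 276, 246 and 238 CPM in OE-circSHPRH and at 219, 210 and 226 CPM in OE-NC, groups that did not overlap (log2 fold change 0.21, SE 0.052; edgeR, adjusted p = 0.107). The adjusted p of NRCAM was 0.0030 without OE-circSHPRH replicate 3, 0.0281 with the class of library as a further term, 0.0014 without the filter and 0.0294 with DESeq2. HGF, a growth factor that also attracts axons, was at 66.8 ± 0.657 CPM in OE-circSHPRH and 59.1 ± 3.77 CPM in OE-NC (0.18; edgeR, adjusted p = 0.260).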

How the data were processed

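RNA of 6 SH-SY5Y samples, 3 per group, was read from 1 deposited table. Per the file headers it holds raw read counts per gene deposited by the authors, the authors' normalized count signal and the authors' FPKM. By the values, the signal is the count divided by 1 factor per library, and FPKM is proportional to count over gene length. The authors' deposited log2 fold change and p-value of each gene, raw and adjusted, stand beside them. For aligner, counter and strand, nothing is given in the sources used here. The submitters' processing notes name GRCh37, but the coordinates of all 28752 genes equalled those of GENCODE 29 on GRCh38, used here.

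Counts were filtered with filterByExpr (minimum count 10, minimum total 15; 16458 genes with 99.8% of the counts kept), given TMM factors, and tested in edgeR 4.0.16 (glmQLFit, glmQLFTest, two-sided, group as the only term, adjusted p threshold 0.05), in R 4.3.3. The biological coefficient of variation was 5.36%. SE is the absolute log2 fold change over the square root of F. Intervals are 95%. CPM are TMM-scaled; levels between genes were compared by deposited FPKM only. Exonic overlap was computed from GENCODE 29. Alternatives were DESeq2 1.42.0, limma-voom (limma 3.58.1), other scalings and filters, a replicate block, a library-class term, a gene-length trend and leaving out each library. The code was tested on simulated data. Replicates of a group differed by more than sampling noise.

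Named members are those with an unadjusted p under 0.05, the highest by FPKM in each family, and the 3 largest and 3 smallest log2 fold changes at a mean log2 CPM of at least 1; from each list the 2 with the smallest p. Other members named were chosen after their values were seen. The members and lists were chosen with earlier results of these data known.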

Additional observations from a re-analysis of the deposited data

How the results depend on the processing

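Over 15 alternatives, 15 of the 19 members named by rule kept one sign in all. The exceptions were near 0: without OE-circSHPRH replicate 3, EFNA4 was at -0.043 and EFNB3 at -0.0030 (up to 0.081 and 0.095 without OE-circSHPRH replicate 1); EPHB4 was at 0.0069 without OE-circSHPRH replicate 1 and at 0.010 without OE-NC replicate 1 (lowest -0.028); SEMA5B was at 0.013 without OE-circSHPRH replicate 2 (lowest -0.22). Members called numbered 0 to 2 with a library left out (2 only without OE-circSHPRH replicate 3, PLXNB2 and SEMA3B), 2 without a filter and 2 with a library-class term, both times the same genes, and 1 with DESeq2. The adjusted p of PLXNB2 ran from 0.0041 to 0.480 and that of SEMA3B from 0.0372 to 0.486 (DESeq2 gave SEMA3B none). All genes called numbered 194 without a filter, 171 with the class term, 79 with DESeq2, and 5 (without OE-circSHPRH replicate 2) to 311 (without OE-circSHPRH replicate 3) with a library left out. Members at an unadjusted p under 0.05 numbered 4 (without OE-NC replicate 1) to 11 with a library left out. The downstream list had 11 such genes without a filter and 4 to 12 with a library left out, the list of other cues 2 with DESeq2 and 2 to 8 with a library left out. The median over members ran from 0.03 to 0.06. Family medians that moved beyond their spread were those of EPHA genes (0.093 at 1 CPM in 3 libraries, 0.23 with the class term, 0.11 to 0.37 with a library left out), neuropilins (0.75 at 1 CPM, which leaves only NRP1), plexins (0.0071 to 0.068), ROBO genes (0.070 to 0.18) and semaphorins (0.0060 to 0.10), the last 3 with a library left out. The cause of these moves was not tested beyond that.

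With the replicate number as a block (replicate block), 6 genes, 0 members and 4 downstream genes at an unadjusted p under 0.05 were counted. Same-numbered libraries did not deviate together (correlations of -0.04, -0.03 and -0.11), so the numbers are not taken as pairs. The members whose interval reached beyond a 1.5-fold change all stood at or below 0.441 FPKM. The part of depth in these intervals was not tested.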
